A study of Homo sapiens with 10 samples.

Results

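Of 6611 mRNA 5′ leaders with enough counts to be compared, 586 had more eIF4A-crosslinked counts in every library treated with a rocaglate than in any vehicle library. The 5′ leader is the untranslated stretch between the mRNA cap and the start codon. Members were chosen from the measured values themselves. A leader row needed at least 90 counts summed over the 9 anti-FLAG libraries, and its CPM (the count divided by all counts of that library, times 1e+06) in each of 6 rocaglate libraries had to exceed the highest of 3 DMSO libraries. The files list 39472 leader rows, of which 15605 had at least 1 count in the anti-FLAG libraries. The members were 8.86% of the leaders with at least 90 counts, and 54 leaders (0.817%) met the mirror condition, below DMSO in all 6. These leader values are therefore given as a description, without a test of rocaglate against DMSO.

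The libraries came from enhanced crosslinking and immunoprecipitation (eCLIP) of FLAG-tagged eIF4A in HEK 293T, an established human embryonic kidney line. Cells of all groups carried the tagged protein per the series' design. They received vehicle (DMSO, 3 libraries), 20 nM silvestrol (3 libraries) or 20 nM CR-1-31-B (3 libraries), for 1 h, and were then irradiated with ultraviolet light (254 nm, 400 mJ/cm2). Numbers 1 to 3 within each group are the labels' replicate numbers, and the labels do not say whether they mark separate cultures, so p-values measure only the spread between these libraries. The input library, number 2, was made without antibody and has no replicate; its treatment is not named in the labels. Whether the tagged line was 1 clone, and how much tagged protein it made, is not given in the sources used here.

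eIF4A is the RNA helicase of the cap-binding complex eIF4F. It unwinds structure in the 5′ leader so that the ribosome can load and scan, and it normally holds and releases RNA in cycles driven by ATP. Rocaglates such as silvestrol, a plant product, are known to clamp eIF4A onto RNA, with a known preference for runs of purines (A and G). An mRNA with a long or structured leader, as many cell cycle and oncogene mRNAs have, is known to need more eIF4A than a ribosomal protein mRNA.

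Because purine runs are the known sequence preference, the longest purine run in the annotated leader is shown for 10 of the 12 members with the widest gap between rocaglate and DMSO libraries, and then for 10 of the 12 with the most counts. APOBEC3C, CCND1, FTH1 and RANBP1 are named only. Each line gives 30 bases of a GENCODE 29 transcript (GRCh38), 5′ to 3′ on the mRNA strand, within an exon of the 5′ leader, with the longest run of A and G in capitals.
PSMC4 (chr19:39971024-39971053, plus strand): tgagcttatgttGAGGGcggagcccagacc
SIK2 (chr11:111602434-111602463, plus strand): tggggagcGGGAGGGAAGGAGcgaaggagc
SON (chr21:33542905-33542934, plus strand): cagaaacagcAGAGGAGAGcagggccgtgc
FLNC (chr7:128830426-128830455, plus strand): cggccctGGAGGGAGAGAGAGccagagagc
USF1 (chr1:161045889-161045918, minus strand): cctaggccGGGAGAGGGAGAAcacagttgg
ZNF574 (chr19:42076228-42076257, plus strand): ggtggccgtgcAAGGGGAGccgtggcccgg
C6orf106 (chr6:34696773-34696802, minus strand): ggggggtGGGAGGGGGGGGAGAGtgagtga
PAFAH1B1 (chr17:2593746-2593775, plus strand): gcGAGAAGGAGAAGGAGGGGAGcgctcggg
HAUS1 (chr18:46104338-46104367, plus strand): tgggcggggcctAGGGAGtgagcggggcgc
ATP6V1D (chr14:67360042-67360071, minus strand): gacgaaaggtGGAGAAAGAcaaggcgtgca
SET (chr9:128689425-128689454, plus strand): agcgagcGAGGGGGAGGGAGAGcgagcgag
HNRNPD (chr4:82373927-82373956, minus strand): aaagcGAGGAGGAGGcgagagcggccgccg
CSNK1E (chr22:38317365-38317394, minus strand): aggaggccGGGAGGAGGGAGGcggcggcgg
PPP1CC (chr12:110742851-110742880, minus strand): tccagtGGGGAGAGAAGGAGGAAGtaggga
ATP2A2 (chr12:110281731-110281760, plus strand): gaggcggaggcGAGGAGGccgcggggacgg
PPP1R14B (chr11:64246852-64246881, minus strand): gcggatcggcGGGGAGGGGGcggggcgcgg
YBX1 (chr1:42682505-42682534, plus strand): catcacaccccGGGAGGAGccgcagctgcc
CKB (chr14:103523065-103523094, minus strand): caagggcgtgcGAGGGGAtccagatatcca
PTGES3 (chr12:56688085-56688114, minus strand): gccgcgaccGGAGAGAAAAAGcggagtcgc
XPO1 (chr2:61538235-61538264, minus strand): ggcactAGGAGGAGGGGGAGAAGcggctgc
The runs were of unequal length. PAFAH1B1 had a run of 20 purines starting at base 3 of its leader, PPP1CC one of 18, XPO1 one of 17, C6orf106 one of 16 and SET one of 15. FLNC, a filamin, had 14 purines that include GAGAGA and begin at base 8. At the other end, HAUS1 had no run over 6 and PSMC4 none over 5 among those with a wide gap. Among those with the most counts ATP2A2 and CKB had none over 7, YBX1 none over 8 and FTH1 none over 6, so a long purine run was not shared by all members of either set. The counts are per leader, not per base, so nothing here shows where in a leader the crosslinks fell.

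Over all members the annotated leaders held more purine runs than the other leaders with at least 90 counts. A leader sequence was found for 581 of 586 members (99.1%) and for 5840 of the 6025 others. The median share of 6-base windows made only of A and G was 3.85% in members and 2.67% in the others, and it was 1.78% in the 48 matched leaders that stood below DMSO. A run of at least 10 purines was present in 293 member leaders (50.4%) against 2212 others (37.9%). AGAGAG or GAGAGA, overlapping motifs read on the mRNA strand, was present in 140 members (24.1%) and 934 others (16.0%), against 16.7% of all leaders and 3 of the 48 below DMSO (6.25%). Windows made only of C and T went the other way, with medians of 2.05% in members and 2.31% in the others. Median length and G or C content were close, at 251 and 238.5 bases and 68.8% and 68.4%. Short leaders were fewer among members, with lower quartiles of length of 165 and 138 bases. Purines made up a median of 53.4% of the bases in members and 50.9% in the others. By length class, the share with 10 purines in a row was 35.8% against 18.9% for leaders from 100 to under 200 bases and 55.0% against 40.6% from 200 to under 400 bases. The gap was narrower for leaders under 100 bases, at 12.7% against 9.86%, and for those of 400 bases or more, at 72.6% against 70.6%. These are shares without a test, and a match is not a measured site.

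The same held within the first 50 transcribed bases of RefSeq's annotated starts (GRCh38), which 491 members (83.8%) and 5008 others had. AGAGAG or GAGAGA lay there in 8.35% of members and 5.25% of the others, and a run of 6 purines in 64.8% and 52.1%. On the opposite strand, which the mRNA does not carry, the order was reversed, at 3.05% against 4.13% and 40.5% against 45.3%. A start with C followed by 4 pyrimidines, as in terminal oligopyrimidine mRNAs of the translation machinery, was found in 7.54% of members and 8.55% of the others.

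**Figure D1:**
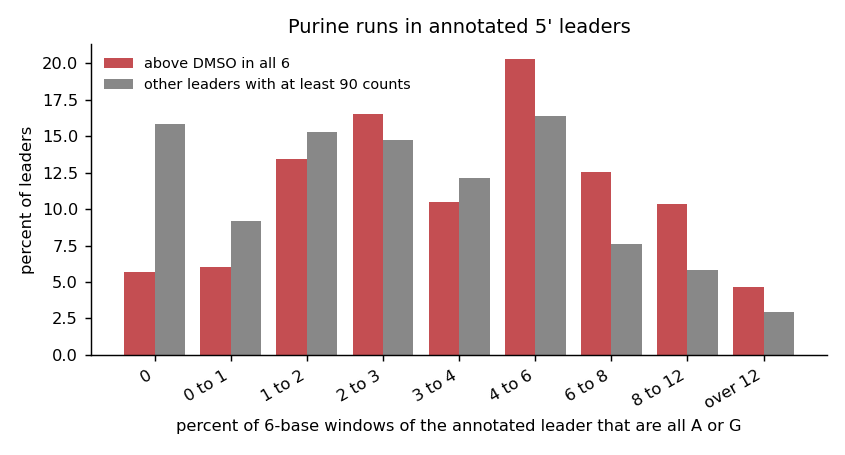
Share of leaders (y axis, percent) by the share of their 6-base windows made only of A or G (x axis, percent), for the 581 member leaders and the 5840 other leaders with an annotated sequence. No such window was present in 5.68% of members and 15.8% of the others, and members take a larger share in each class from 4% up.

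The anti-FLAG libraries held 858733 to 1804732 counts and the input library 2193699. A count of 0 allows a level of up to 3 counts, which is 1.66 to 3.49 CPM by library. CR-1-31-B library 3 stood apart from the other rocaglate libraries, with 22.8% of its counts in 5′ leaders against 28.5% to 35.0% in the other 5 and 20.7% to 24.1% in DMSO. It was the lowest rocaglate library for 272 of the 586 members more than for any other library. Without it 946 leaders would qualify. The highest DMSO library was library 1 for 248 members, library 3 for 177 and library 2 for 161, and without library 1 or 2 the count was 960 or 919. All 8 marker genes of HEK 293T cells had at least 10 counts in the input library (12 to 326), and of 10 markers of liver, blood and muscle 5 were detected, at no more than 7 counts.

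The members spanned a wide range of levels. Their summed counts ran from 92 to 19875 with a median of 413. The median leader level was 16.7 CPM in DMSO, 45.2 CPM with silvestrol and 46.2 CPM with CR-1-31-B. The mean over 6 rocaglate libraries was 2.73 times the DMSO mean in the median member, with quartiles of 2.19 and 3.67, and 118 members reached 4-fold. The gap between libraries was much narrower than the gap between means, since the lowest rocaglate library was 1.23 times the highest DMSO library in the median member and less than 1.1 times in 161. Of the members, 583 passed the low-count filter of the fit used below.

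How many leaders qualified depended on what the counts were divided by. All 6611 leaders had a median log2 change of 0.39, because leaders as a class took a larger share of counts with rocaglates. When each leader was divided by the leader counts of its library alone, that median was -0.03. Then 293 leaders stood above DMSO in all 6 libraries and 260 below, so 53.0% of the separated leaders were higher, against 91.6% with all counts as the divisor. The same 586 members had a median log2 change of 1.45 with all counts and 1.01 relative to leader counts, and 284 of them (48.5%) still qualified. RNA was not measured per treatment, so more RNA and more crosslinking per RNA cannot be told apart.

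**Figure D2:**
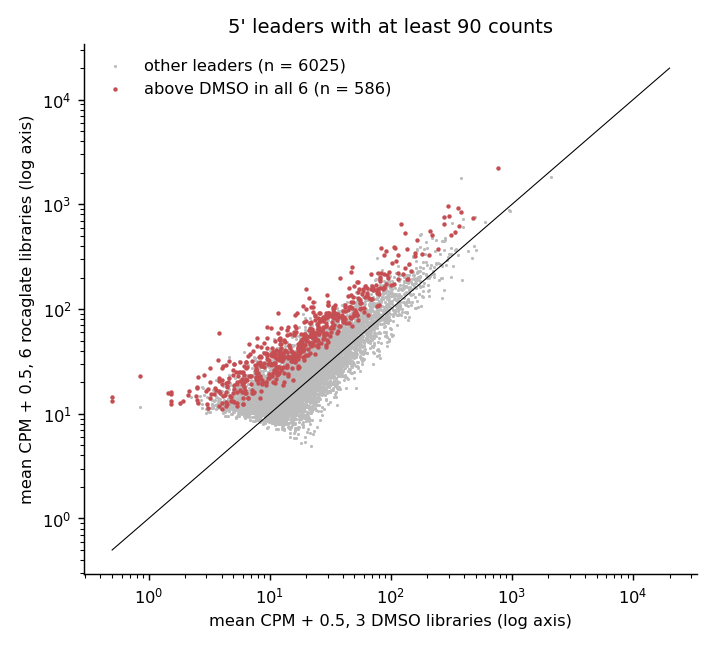
Mean leader level in the 6 rocaglate libraries (y axis, CPM plus 0.5, log scale) against the 3 DMSO libraries (x axis, same unit) for the 586 members and the 6025 other leaders with at least 90 counts. Members lie above the line of equal levels by construction and are found from a few CPM in DMSO up to the SET leader near the top right.

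At the edge of the rule, GRB2, an adaptor of growth factor receptors, was just inside with a lowest rocaglate level of 65.4 CPM against a highest DMSO level of 65.3 CPM. CDKN1A, the cell cycle inhibitor p21, and TNRC6B, a miRNA effector, were inside at ratios of 1.00109. TRIP12, a ubiquitin ligase, was just outside at a ratio of 0.999, as were HAUS6 and SIL1 at 0.998. For the count minimum, HEATR6 entered with 92 counts and CAAP1 with 93, while ZNF614 and AIFM2 with 89 and TSTD2 with 87 did not.

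The widest separation from DMSO, by the ratio of the lowest rocaglate to the highest DMSO library, was seen for 12 leaders of varied function. APOBEC3C, a cytidine deaminase that restricts retroviruses, had no leader count in any DMSO library. It had 7.76, 7.97 and 8.15 CPM with silvestrol and 8.69, 30.5 and 20.7 CPM with CR-1-31-B. The mean over both was at least 14.4-fold higher than a floor of 3 counts over the DMSO group, and the near-identical copies of this gene make its counts uncertain. PSMC4, an ATPase of the proteasome's regulatory particle, likewise had 0 vehicle counts, and 22.2, 12 and 2.33 CPM with silvestrol and 13.7, 19.5 and 7.64 CPM with CR-1-31-B, at least 13.3-fold above that floor. Silvestrol library 3 was the lowest of these, below the 3.49 CPM that 3 counts make in that library.

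SON, a splicing cofactor of nuclear speckles, had 0, 0 and 1.06 CPM in DMSO, 31.6, 3.98 and 14 CPM with silvestrol and 23.6, 48.5 and 14.2 CPM with CR-1-31-B. A single count in DMSO library 3 made up its whole vehicle level. SIK2, a salt-inducible kinase of the AMPK family, had 0.933, 0 and 2.12 CPM in DMSO, 23.8, 9.96 and 16.3 CPM with silvestrol and 15.5, 18.8 and 8.74 CPM with CR-1-31-B. HAUS1, a subunit of the augmin complex that branches spindle microtubules, had 0.933, 0 and 2.12 CPM in DMSO against 13.3, 12.9 and 8.15 CPM and 20.5, 6.25 and 9.83 CPM with silvestrol and CR-1-31-B. All 3 leaders rest on 3 or fewer DMSO counts, so no fold is given for them.

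CCND1, cyclin D1, which drives entry into S phase, had more counts behind it. Its leader stood at 5.60, 13 and 8.48 CPM in DMSO, 74.2, 71.7 and 74.5 CPM with silvestrol and 64.6, 64.1 and 49.1 CPM with CR-1-31-B, a 7.35-fold difference of means. The silvestrol libraries lay close together and all 6 treated libraries lay far above the 3 vehicle libraries. FLNC, the muscle-type filamin that crosslinks actin, had 11.2, 13 and 9.54 CPM in DMSO, 115, 111 and 125 CPM with silvestrol and 59, 93 and 47 CPM with CR-1-31-B (8.13-fold). Here each silvestrol library was above each CR-1-31-B library.

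PAFAH1B1 (LIS1), a dynein regulator with the 20-purine run shown above, was the most counted of these 12. It had 78.4, 79.1 and 89 CPM in DMSO, 452, 348 and 378 CPM with silvestrol and 355, 494 and 273 CPM with CR-1-31-B (4.66-fold). The DMSO libraries differed little among themselves, and the lowest treated library was CR-1-31-B library 3. USF1, an E-box transcription factor, had 1.87, 0.931 and 3.18 CPM in DMSO, 34.4, 13.9 and 12.8 CPM with silvestrol and 11.2, 20.3 and 10.9 CPM with CR-1-31-B. ZNF574, a zinc finger protein, was 7.40-fold above DMSO, C6orf106 6.82-fold and ATP6V1D, a subunit of the vacuolar proton pump, 4.96-fold, and the per-library plot of the 12 leaders shows no overlap between DMSO and treated libraries for any of them, as the rule requires.

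**Figure D3:**
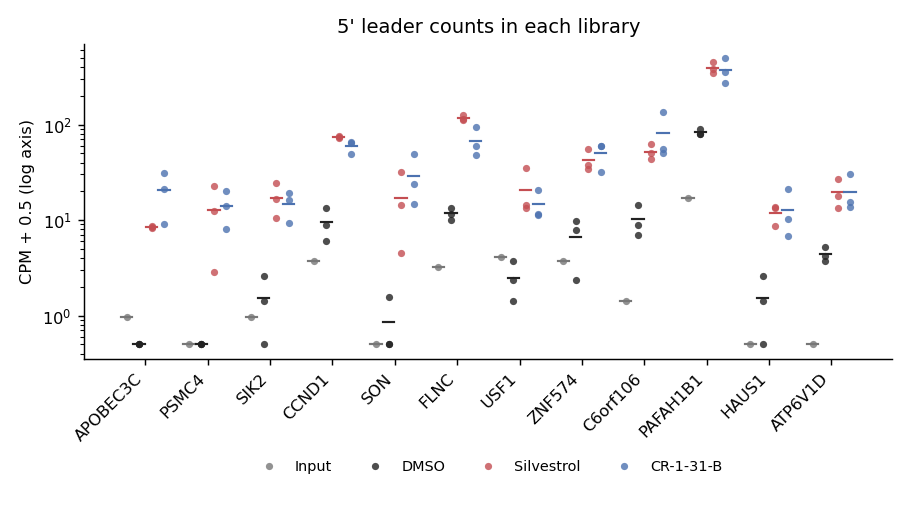
Leader level in each library (y axis, CPM plus 0.5, log scale) for the 12 members with the widest gap between the lowest rocaglate and the highest DMSO library (x axis). Points are libraries, horizontal bars are group means, and the input is 1 library. The 6 treated points of each gene lie above its 3 DMSO points, and the DMSO points of APOBEC3C and PSMC4 sit at 0 CPM.

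Ranked by counts rather than by separation, the members were led by SET, an inhibitor of protein phosphatase 2A and a histone chaperone. Its leader had 667, 741 and 897 CPM in DMSO, 3209, 1836 and 2505 CPM with silvestrol and 2222, 2226 and 1426 CPM with CR-1-31-B (2.91-fold). CPM is not divided by length, so this order is one of counts and not of binding per base. HNRNPD (AUF1), which binds AU-rich mRNAs, had 383, 237 and 270.3 CPM in DMSO, 1384, 653 and 864 CPM with silvestrol and 1161, 1038 and 656 CPM with CR-1-31-B (3.23-fold).

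YBX1, a cold-shock protein that packages mRNA, showed the largest fold difference of means among the 12 most counted leaders. It had 146, 95.9 and 122 CPM in DMSO, 1042, 256 and 852 CPM with silvestrol and 693, 514 and 527 CPM with CR-1-31-B (5.35-fold), and silvestrol library 2 was far below the other treated libraries. FTH1, the ferritin heavy chain that stores iron, had 405, 396 and 279.9 CPM in DMSO, 914, 947 and 869.9 CPM with silvestrol and 1044, 1046 and 688 CPM with CR-1-31-B (2.55-fold). Only 0.435% of the windows of its annotated leader were all purine. SET, YBX1, FTH1, HNRNPC, HMGB1 and the ribosomal protein genes have processed pseudogenes, so reads could be split between copies and their counts are uncertain.

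Some of the 12 most counted leaders belong to enzymes of phosphorylation or their regulators. CSNK1E, casein kinase 1 epsilon, was 2.20-fold above DMSO, PPP1CC, a catalytic subunit of protein phosphatase 1, 2.55-fold, and PPP1R14B, an inhibitor of that phosphatase, 2.37-fold. RANBP1, a cofactor of the Ran GTPase, was 2.76-fold higher and PTGES3 (p23), an Hsp90 cochaperone, 2.61-fold. ATP2A2 (SERCA2), CKB and XPO1 had differences under 2-fold, at 1.55-fold, 1.69-fold and 1.61-fold. For CKB, creatine kinase B, the DMSO values of 443, 315 and 333 CPM came close to the lowest treated library (CR-1-31-B library 3, at 444 CPM).

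Gene functions were described with 30 lists, each read against the 8.86% of all leaders with at least 90 counts that were members. Of the 586 members, 214 were in at least 1 list and 372 in none. No enrichment was tested, and since members and lists were chosen with results of these data known, a share above 8.86% is a description only.

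Lists of growth and cell cycle genes had shares above the background. Of 104 leaders in the cell cycle and mitosis list, 21 were members (20.2%), among them CCND1, CCND2, CDK1, CDC6, CDC7, PLK1, PLK4, AURKB and E2F1. The list also took in CDK5, CDK8, CDK13, KIF1C and KIF3B, which are known mainly for other roles, so its share is not of cell cycle genes alone. FZR1, an activator of the anaphase-promoting complex, had 14.9, 20.5 and 19.1 CPM in DMSO, 136, 82.7 and 76.9 CPM with silvestrol and 139, 157 and 48 CPM with CR-1-31-B (5.87-fold). CDK5 was 4.44-fold higher, E2F1, a transcription factor of the G1/S transition, 2.54-fold, CDC6, a replication licensing factor, 3.03-fold and PLK4, the centriole kinase, 2.95-fold. Both activators and inhibitors of the cycle were present, since CDKN1A and CDKN2A were members too.

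Of 26 oncogenes and growth genes known as sensitive to eIF4A inhibition, 5 were members (19.2%), namely CCND1, CCND2, MYC, TGFBR1 and ARF6. MYC, the growth transcription factor, had 134, 95.9 and 91.2 CPM in its leader in DMSO, 447, 416 and 312 CPM with silvestrol and 394, 439 and 296 CPM with CR-1-31-B (3.58-fold). Treated and vehicle libraries were far apart. ARF6, a small GTPase of membrane traffic, was 2.76-fold higher, and TGFBR1, a TGF-beta receptor kinase, 2.05-fold. Of 27 immediate early genes, whose mRNAs are induced within minutes of stimulation, 5 were members (18.5%). JUNB, an AP-1 subunit, had 2.80, 7.44 and 2.12 CPM in DMSO, 36, 21.9 and 32.6 CPM with silvestrol and 22.4, 62.5 and 13.1 CPM with CR-1-31-B (7.62-fold). TRIB1 was 2.69-fold and IER2 4.98-fold higher, and IER5 and MYC were the others.

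Kinases and phosphatases were both represented. Of 129 leaders in the kinase list 24 were members (18.6%), led in separation by PAK4, TAOK2, WNK2 and STK38L. This list took in the regulatory subunits PRKAR1A and PRKAR2A. It left out other member kinases, such as SIK2, CDK1, PLK1 and AURKB, so its share is not that of all kinases. TAOK2, a kinase of the p38 stress pathway, had 21.5, 32.6 and 12.7 CPM in DMSO, 179.5, 123 and 119 CPM with silvestrol and 100, 126 and 55.7 CPM with CR-1-31-B (5.27-fold). PAK4 was 4.46-fold and WNK2 2.51-fold higher, and AKT1, MAPK14, CSNK1D and CSNK1E were members as well. Of 85 leaders in the phosphatase list, which also holds regulatory subunits and inhibitors, 14 were members (16.5%). PPP4C, the catalytic subunit of protein phosphatase 4, had 129.8, 141 and 119.8 CPM in DMSO, 689, 502 and 547 CPM with silvestrol and 553, 591 and 301 CPM with CR-1-31-B (4.07-fold). PPP2CA, the catalytic subunit of protein phosphatase 2A, was 4.92-fold and PTPN1 3.83-fold higher. PPP1R15A and PPP1R15B, which direct protein phosphatase 1 to eIF2, were both members.

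The list of nuclear pore and import genes, which is not of carriers alone, had the highest share among lists of 10 or more leaders, 7 of 32 (21.9%). KPNB1 (importin beta) had 122, 124 and 98.6 CPM in DMSO, 455, 295 and 373 CPM with silvestrol and 406, 289 and 167 CPM with CR-1-31-B (2.88-fold). TNPO3, which imports splicing factors, was 3.68-fold and KPNA6 2.45-fold higher, and RANBP1, XPO1, KPNA1 and NUP62 completed the group. Small GTPases and their regulators had 20 of 133 (15.0%), with ARHGAP35 at 3.65-fold, RAP1A at 4.72-fold and CDC42EP1 at 2.10-fold. Vesicle traffic genes had 13 of 103 (12.6%), among them the exocyst subunits EXOC5 (2.52-fold) and EXOC6B (4.31-fold) and the retromer subunit VPS26A (3.90-fold). VPS72, which that list took in by its symbol, encodes a chromatin protein. Of 30 proteasome subunits 5 were members (16.7%), PSMC4, PSMA7, PSMD1, PSMD2 and PSME3, and PSMD2 was 7.56-fold above DMSO.

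Among genes of the translation apparatus, a short list of repressors and the list of ribosomal proteins differed in their shares. The repressor list held only 7 leaders, of which 3 were members (42.9%). They were PAIP2, which displaces poly(A)-binding protein, and the eIF4E-binding proteins EIF4EBP1 and EIF4EBP2. The list is not complete, since the member SAMD4B, also a translational repressor, is not on it. The share is thus that of these 7 genes and not of repressors in general. EIF4EBP1 had 8.40, 5.58 and 6.36 CPM in DMSO, 58.2, 32.9 and 36.1 CPM with silvestrol and 53.4, 45.3 and 10.9 CPM with CR-1-31-B (5.82-fold), with CR-1-31-B library 3 well below the other treated libraries. EIF4EBP2 was 2.73-fold and PAIP2 2.92-fold higher. Initiation, elongation and termination factors had 6 of 44 (13.6%), 2 of them the same eIF4E-binding proteins, beside EIF5B, EIF2S1 and the release factors GSPT1 and ETF1. EIF5B, which joins the ribosomal subunits, was 4.01-fold higher, GSPT1 2.38-fold and ETF1 2.23-fold.

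Of 78 cytosolic ribosomal protein leaders 4 were members (5.13%), RPL18, RPL24, RPL41 and RPS29, while 2 stood below DMSO. RPL18 had 70.9, 23.3 and 47.7 CPM in DMSO, 313, 165 and 171 CPM with silvestrol and 312, 364 and 192 CPM with CR-1-31-B (5.34-fold), and RPL41 was 3.75-fold higher. The median fitted log2 change of all 78 leaders was -0.05, against 0.41 over all tested leaders. Mitochondrial ribosomal proteins had 3 of 33 (9.09%), aminoacyl-tRNA synthetases 3 of 22 (13.6%) and DEAD or DEAH box helicases 2 of 26 (7.69%), DDX6 and DHX33.

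The splicing list had a share much like that of vesicle traffic, 7 of 55 (12.7%), with SNRNP25, a protein of the minor spliceosome, at 6.18-fold and SNRPD2, a core spliceosomal protein, at 5.14-fold. Other lists of nuclear proteins lay nearer the background. Zinc finger proteins had 19 of 217 (8.76%), chromatin regulators 11 of 112 (9.82%), homeobox, POU, SOX, forkhead and GATA factors 6 of 58 (10.3%) and DNA replication and repair 5 of 60 (8.33%). POU3F2, a neural transcription factor, had 4.67, 0.931 and 4.24 CPM in DMSO, 69.8, 75.7 and 61.7 CPM with silvestrol and 47.8, 84.4 and 12 CPM with CR-1-31-B (17.9-fold). Its annotated leader held a run of 29 purines, and CR-1-31-B library 3 was its lowest treated library. SMARCE1, a BAF complex subunit, had 2.80, 0 and 0 CPM in DMSO, 26.6, 15.9 and 4.66 CPM with silvestrol and 20.5, 13.3 and 9.83 CPM with CR-1-31-B, and NSD1, a histone methyltransferase, was 4.63-fold higher.

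Among structural and housekeeping lists, actin cytoskeleton genes had 5 of 53 (9.43%), with TPM3 at 5.54-fold and CFL2 at 5.88-fold, and microtubule genes 5 of 47 (10.6%), with MAP7D1 at 3.01-fold, both near the background of 8.86%. The next lists were below it. Ubiquitin ligases and proteases had 16 of 190 (8.42%), developmental signalling 5 of 60 (8.33%), solute carriers 5 of 106 (4.72%) and chaperones 3 of 64 (4.69%). PCDH9, a protocadherin, was the 1 member among 32 adhesion genes (3.12%), with 19.6, 26.1 and 12.7 CPM in DMSO, 192, 159 and 293 CPM with silvestrol and 80.7, 162 and 43.7 CPM with CR-1-31-B. No member was found among 53 oxidative phosphorylation leaders, 24 histone leaders or 14 glycolysis leaders. A share of 0% describes only the leaders in these lists. The leaders of these lists had median fitted log2 changes of 0.18, 0.58 and 0.30, against 0.41 over all tested leaders.

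Summed over all members, the leaders held 2.08%, 1.94% and 2.02% of the counts in the DMSO libraries. Silvestrol libraries held 6.07%, 4.51% and 4.85%, and those with CR-1-31-B 5.37%, 5.94% and 3.63%. The input library had 0.465% (95% exact Clopper-Pearson interval 0.456% to 0.474%, which covers counting error only). These sums follow from the choice of members. The other parts of the same mRNAs, which the rule did not read, differed less. The summed coding sequences (CDS) held 2.43% ± 0.224 (SD, n = 3) of counts in DMSO libraries, 2.52% ± 0.445 in silvestrol libraries and 2.87% ± 0.121 in CR-1-31-B libraries, against 2.44% in the input. The CR-1-31-B libraries (3.01%, 2.82% and 2.79%) were all above the DMSO libraries (2.65%, 2.20% and 2.42%), while silvestrol library 2 at 2.03% was below them. The summed 3′UTRs held 5.56% ± 1.21 in the DMSO group, 3.12% ± 0.413 in the silvestrol group and 2.54% ± 0.325 in the CR-1-31-B group, but most of this was 1 gene, HINT3. Without HINT3 they held 1.54% ± 0.218, 1.26% ± 0.0872 and 1.34% ± 0.204, and the groups overlapped. Taken by replicate number, each treated library was below the DMSO library of its number (1.24%, 1.18% and 1.35% with silvestrol and 1.26%, 1.18% and 1.57% with CR-1-31-B, against 1.67%, 1.29% and 1.66%). This was not particular to the members, since the 3′UTRs of the 6025 other genes did the same. Those held 9.96%, 10.3% and 10.8% with silvestrol and 10.0%, 8.76% and 12.9% with CR-1-31-B, against 13.3%, 11.0% and 13.6% in DMSO.

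**Figure D4:**
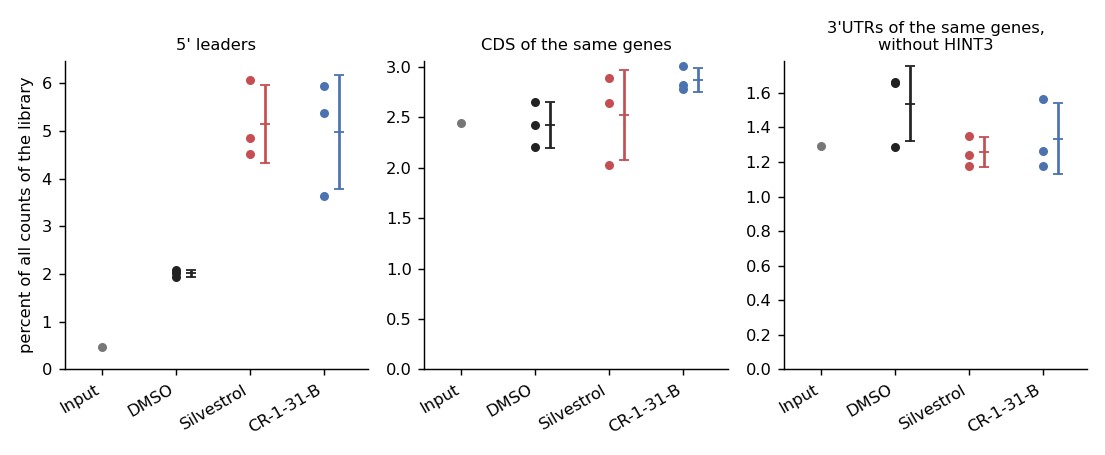
Percent of all counts of each library (y axis, from 0, with its own scale in each panel) in the leaders, the CDS and the 3′UTRs (without HINT3) of the 586 member genes, by group (x axis). Points are libraries and the bars beside them are the mean ± SD of 3 libraries. The leader panel is separated by the rule, while the CDS of CR-1-31-B alone lies above DMSO and the 3′UTR values overlap.

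Within a member gene, the leader's part of the leader, CDS and 3′UTR counts had a median of 29.3% in DMSO (mean of 3 libraries), 55.4% with silvestrol and 52.4% with CR-1-31-B. For the other genes the same medians were 36.0%, 44.9% and 42.6%. In DMSO the members thus had a smaller leader part than the others, which the rule favours since it asks for low DMSO levels. In the input library the 2 medians were 11.0% and 12.2%.

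The input library, the background without antibody, showed members and other leaders at similar levels. The median member leader had 5.01 CPM in the input and the median of the others 4.56 CPM. No input count was seen for 19 members (3.24%) and 144 others (2.39%), where a count of 0 allows up to 1.37 CPM. The ratio of the DMSO level to the input, taken per leader with an input count, had a median of 3.76 for members and 4.19 for the others, and all 3 DMSO libraries exceeded the input in 80.4% of members and 79.7% of the others. With rocaglates all 6 libraries exceeded the input in 99.3% of members and 73.1% of the others, a difference the choice of members favours. The coding sequences of member genes had a median input level of 20.1 CPM against 16.9 CPM, and their 3′UTRs 12.8 CPM against 10.0 CPM.

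Some members had a high background. HNRNPC, a pre-mRNA packaging protein, had 125 CPM in the input, 190.4, 177 and 110.2 CPM in DMSO, 439, 353 and 259.7 CPM with silvestrol and 306, 309 and 239 CPM with CR-1-31-B, so DMSO library 3 was below the input. FTH1 followed with 81.6 CPM in the input, SAMD4B, a translational repressor of the Smaug family, with 74.8 CPM, XPO1, the nuclear export receptor, with 67.9 CPM and ATP2A2, the calcium pump of the endoplasmic reticulum, with 64.7 CPM. At the other end, among members with at least 10 input counts, PPP1R14B stood 49.6 times above the input with rocaglates. It had 13.2 CPM in the input, 271, 321 and 237 CPM in DMSO, 836, 511 and 601 CPM with silvestrol and 794, 777 and 412 CPM with CR-1-31-B. PSMA7, a core proteasome subunit, was 40.4 times above the input, SET 38.7 times, ANP32A, another phosphatase 2A inhibitor, 31.4 times and ARF6 30.2 times.

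The coding sequences of member genes were tested with edgeR's quasi-likelihood test over all 24713 features (a gene in 1 class) that passed the filter, with the mean of both rocaglates set against DMSO. These rows were not read by the rule but come from the same libraries and share the total counts. Of the 500 member CDS tested, 2 rose and 0 fell at a Benjamini-Hochberg adjusted p under 0.05, 0.4% against 0.273% of all 8413 CDS rows (0.0% lower). The member CDS had a median log2 change of 0.14, against -0.06 in the other genes with at least 90 leader counts and -0.04 over all CDS. The change was above 0 in 59.6% of the members and 45.5% of the others, and 16.4% against 8.12% had an unadjusted p under 0.05. The rocaglate libraries differed in this. Taken library by library, the median over the 500 member CDS was -0.27 in silvestrol library 2 and 0.10 to 0.29 in the others.

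RPL41, a very small protein of the large ribosomal subunit, was one of the CDS that rose. It had 173, 75.4 and 99.6 CPM in DMSO, 1018, 289 and 854 CPM with silvestrol and 616, 435 and 611 CPM with CR-1-31-B, a log2 change of 2.50 ± 0.40 (SE, edgeR adjusted p = 0.00519). All 6 treated libraries were above the DMSO libraries. The call was lost without DMSO library 2 (adjusted p = 0.0550) or library 3 (adjusted p = 0.113).

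PPP1R14B, the phosphatase 1 inhibitor, was the other CDS that rose. It had 60.7, 71.7 and 61.5 CPM in DMSO, 289, 103 and 139 CPM with silvestrol and 415, 348 and 248 CPM with CR-1-31-B, a log2 change of 1.96 ± 0.36 (SE, edgeR adjusted p = 0.0132), and was higher in 6 of 6 libraries. Leaving out any 1 DMSO library ended this call (adjusted p = 0.114, 0.0698 and 0.185 without libraries 1, 2 and 3).

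With the replicate number as a block, 15 of the 500 member CDS rose (3%) and 1 fell, against 1.19% and 0.178% of all CDS rows. The largest were TRIB3, a stress-induced pseudokinase (log2 change 2.80), RPL41 (2.50), PPP1R14B (1.89) and STK17A, a kinase linked to apoptosis (1.86). CDKN2A (1.23), IER2 (1.31), YY1 (1.19) and PPP4C were also among them, and DNAJA1, an Hsp40 chaperone, was the one that fell (-1.13). DNAJA1 thus had a higher leader and a lower CDS, with CDS values of 77.5, 60.5 and 57.2 CPM in DMSO, 34.9, 15.9 and 30.3 CPM with silvestrol and 36.6, 21.9 and 39.3 CPM with CR-1-31-B. TRIB3 had 3.73, 0.931 and 4.24 CPM in DMSO, 27.2, 19.9 and 12.8 CPM with silvestrol and 19.9, 13.3 and 25.1 CPM with CR-1-31-B in its CDS, and just missed the threshold without the block (edgeR adjusted p = 0.0503).

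DESeq2, an alternative tool, called 14 of the 500 member CDS higher (2.8%) and 0 lower. Over all 8413 CDS rows it called 1.06% higher and 6 rows lower (1.86% and 0.125% of the rows with an adjusted p). The edgeR fit without the low-count filter called 4 member CDS (0.298% of all CDS rows higher). By separation of libraries alone, without a filter, the CDS of 31 members (5.29%) lay above DMSO in all 6 libraries and those of 11 (1.88%) below. The same was true of 1.96% and 3.09% of the other genes, and of 2.25% and 2.98% of all 6611. For members described above, the CDS values were as follows. The CCND1 CDS had 14, 17.7 and 12.7 CPM in DMSO, 19.9, 15.9 and 24.5 CPM with silvestrol and 25.5, 60.2 and 29.5 CPM with CR-1-31-B, a log2 change of 0.95 that did not pass (edgeR adjusted p = 0.485). The MYC CDS, at 72.8, 88.4 and 45.6 CPM in DMSO, 125, 92.6 and 109 CPM with silvestrol and 125, 118 and 107 CPM with CR-1-31-B, had a log2 change of 0.75 that did not pass either (edgeR adjusted p = 0.389). For FLNC the CDS estimate had the opposite sign to the leader, at -0.58 (edgeR adjusted p = 0.572), with 82.1, 125 and 91.2 CPM in DMSO, 46, 89.6 and 62.9 CPM with silvestrol and 69.5, 52.4 and 66.6 CPM with CR-1-31-B. SET had a CDS estimate of 0.26 (edgeR adjusted p = 0.893).

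**Figure D5:**
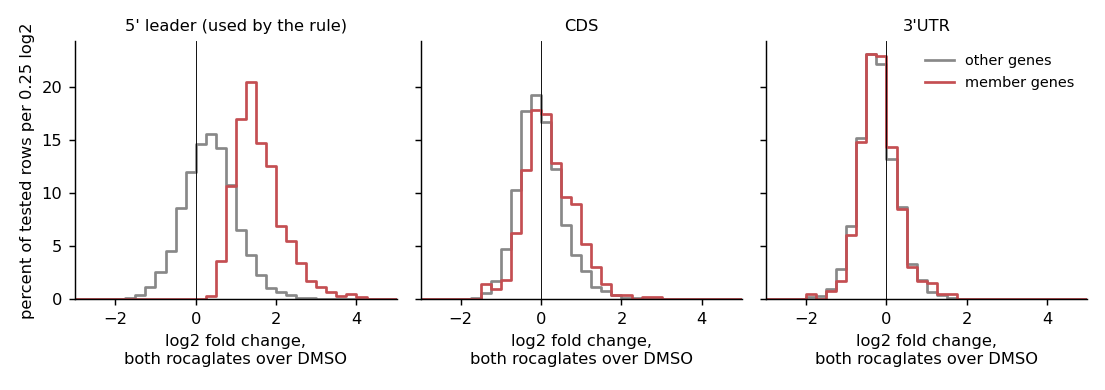
Distribution of log2 fold changes of both rocaglates over DMSO (x axis) as percent of tested rows per 0.25 log2 (y axis) for leaders, CDS and 3′UTRs of member genes and of the other genes with at least 90 leader counts. The leader panel is shifted by the choice of members, the member CDS curve lies to the right of the others (medians 0.14 and -0.06), and the 3′UTR curves lie on each other (medians -0.23 and -0.25).

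The 3′UTRs of member genes did not share the leaders' direction. Of 398 tested, 0 rose and 1 fell (HINT3), against 0.0% and 0.0149% of all 6712 3′UTR rows, with 23 members (5.78%) at an unadjusted p under 0.05, against 3.59% of all rows and 4.10% of the other genes with at least 90 leader counts. Their median log2 change was -0.23, against -0.25 in the other genes with at least 90 leader counts. Taken library by library, the member median ran from -0.47 in CR-1-31-B library 2 to 0.11 in CR-1-31-B library 3. HINT3, which encodes a nucleotide-binding HIT-family protein, combined a higher leader with the most counted 3′UTR of the set. Its leader had 5.60, 2.79 and 5.30 CPM in DMSO, 27.7, 51.8 and 18.6 CPM with silvestrol and 30.4, 36.7 and 12 CPM with CR-1-31-B. Its 3′UTR had 26406, 54278 and 40068 CPM in DMSO, 18514, 23666 and 13700.4 CPM with silvestrol and 16093, 13479 and 6576 CPM with CR-1-31-B, against 268 CPM in the input, a log2 change of -1.38 ± 0.32 (SE, edgeR adjusted p = 0.0498). All 6 treated libraries were below the 3 DMSO libraries, yet the call was lost in 7 of 9 fits that left out 1 library.

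With the replicate block, 2 of the 398 member 3′UTRs rose (0.503%) and 2 fell, against 0.0894% and 0.104% of all 3′UTR rows. PPP4C (1.39) and RPL41 (1.36) rose, and HINT3 (-1.42) and HMGB1, a chromatin-bound alarmin (-1.39), fell. In this fit PPP4C was thus higher in all 3 parts of its mRNA, the leader by the rule, with 3′UTR values of 31.7, 12.1 and 32.9 CPM in DMSO, 88.1, 65.7 and 74.5 CPM with silvestrol and 55.9, 37.5 and 57.9 CPM with CR-1-31-B. HMGB1 had a leader 3.97-fold above DMSO and overlapping 3′UTR values of 122, 47.5 and 79.5 CPM in DMSO, 53.7, 2.99 and 29.1 CPM with silvestrol and 43.5, 21.1 and 48 CPM with CR-1-31-B. Without the block, neither 3′UTR was called, nor was the PPP4C CDS. DESeq2 called 2 of the 398 member 3′UTRs higher (0.503%) and 1 lower. Over all 6712 3′UTR rows it called 0.0745% higher and 7 rows lower (0.159% and 0.222% of the rows with an adjusted p). The edgeR fit without the filter called 1 member 3′UTR (0.00619% lower over all). By separation alone 6 member 3′UTRs (1.02%) were above and 25 (4.27%) below DMSO in all libraries, against 0.499% and 3.3% of all 6611.

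The 2 compounds were compared at the same dose (20 nM) and time (1 h). The rule asked the libraries of both compounds to exceed DMSO, so it left out leaders raised by 1 compound alone and favours small differences between the compounds among members. None of the 583 tested member leaders differed between CR-1-31-B and silvestrol (edgeR's quasi-likelihood test, adjusted over 24713 features, lowest adjusted p = 0.9995), as for 0.0% of all 7122 leaders. An unadjusted p under 0.05 was found for 15 members (2.57%) and for 3.36% of all leaders, and DESeq2 and the blocked edgeR fit called 0 members too, the latter with 0.014% of all leaders higher with CR-1-31-B. The median log2 difference, CR-1-31-B minus silvestrol, was -0.05, with a range of -1.64 to 1.43, and 259 were higher with CR-1-31-B and 324 with silvestrol. This does not show that the compounds acted alike, because the 95% interval of the difference lay within 1 log2 unit either way for only 133 members and reached past it for 450.

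The 10 member leaders with the lowest unadjusted p between the compounds were singled out after their values were seen, and CTNND1 and IER2 came first among them. CTNND1 (p120 catenin), which stabilises cadherins, had 11.2, 18.6 and 5.30 CPM in DMSO, 81.5, 60.7 and 93.2 CPM with silvestrol and 29.8, 26.6 and 24 CPM with CR-1-31-B. Its log2 difference was -1.59 (95% interval -2.49 to -0.70) and the silvestrol libraries were all above the CR-1-31-B libraries. IER2, an immediate early protein, had 13.1, 14.9 and 12.7 CPM in DMSO, 29.4, 58.8 and 18.6 CPM with silvestrol and 60.2, 182 and 55.7 CPM with CR-1-31-B. Its difference was 1.43 (95% interval 0.42 to 2.45), with CR-1-31-B library 2 far above the rest and 1 silvestrol library above the lowest CR-1-31-B library. PCDH9 (-1.20), GFI1 (-1.38), SNRNP25 (-1.02), POU3F3 (-1.01) and FLNC (-0.86) were lower with CR-1-31-B, and SPDL1 (1.28), DIXDC1 (1.27) and BRAP (1.03) higher, none past the threshold.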

How the data were processed

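eCLIP libraries were 1 input, 3 DMSO, 3 silvestrol and 3 CR-1-31-B. The deposited values are read counts per gene symbol, per the file headers in 7 classes: 3 parts of mRNA, ncRNA, LINC, Pseudogene and transcript. Per the submitters' processing notes, the authors used cutadapt and then the aligner Bowtie 1.1. The genome build, annotation, duplicate handling, use of strand and counting rule are not given in the sources used here, so counts of overlapping, antisense or near-identical genes are uncertain. The 1 blank line of each file was left out.

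CPM used the sum of all 7 columns. The 9 anti-FLAG libraries were fitted with edgeR 4.0.16 in R 4.3.3 (filterByExpr, TMM, quasi-likelihood test, Benjamini-Hochberg over 24713 features, threshold 0.05), without a replicate block, and DESeq2 1.42.0 was an alternative. On simulated counts the fit for both rocaglates against DMSO recovered 86 of 100 features changed 4-fold and 7 of 100 changed 2-fold. The CR-1-31-B against silvestrol fit recovered 74 of 100 changed 4-fold. Whether features with few counts are recovered as often was not tested. Recovery with libraries paired by replicate number was not tested either. A leader sequence came from 1 GENCODE 29 protein-coding basic transcript per gene, a choice added after the data were seen, and start sites from RefSeq's table for GRCh38. Sequences were matched by symbol, including older symbols.

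Deviations from group means (log2 CPM, prior count 2) correlated at 0.101 to 0.283 in the 9 same-number pairs and at -0.228 to 0.0295 in the others. The numbers were thus read as pairs from the data and not from the labels. The main fit left this pairing out, and the fit with the replicate block is given beside it. With the block, the member CDS called went from 2 to 16 and the member 3′UTRs called from 1 to 4. Counts of replicates differed beyond sampling noise (chi-square per degree of freedom 3.97 to 9.07).

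Members and lists were chosen with earlier results of these data known. Genes were named by a set rule: the 12 members with the widest gap, the 12 with most counts, 3 on each side of each threshold, up to 4 per list, those called in CDS, in 3′UTR or between compounds, and the 5 highest by input level and by ratio to the input. Some genes that this rule names are not reported here. Other names were picked after their values were seen.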

Additional observations from a re-analysis of the deposited data

How the results depend on the processing

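The number of member leaders was 586 as reported, 293 when each leader was divided by the leader counts of its library, and 574 to 960 when 1 library was left out (960 without DMSO library 1, 919 without DMSO library 2 and 946 without CR-1-31-B library 3). Of the leaders that qualified without DMSO library 1, 584 were members. With TMM-scaled totals 638 qualified, with a minimum of 45 counts 646 and with 180 counts 492. The member CDS called were 2 as reported, 4 without a low-count filter, 14 with DESeq2 and 16 with the replicate block, and 0 to 6 when 1 library was left out, with 0 without DMSO library 2 or 3, 1 without DMSO library 1, 4 without CR-1-31-B library 3 and 6 without silvestrol library 2. The member 3′UTRs called were 1 as reported, 3 with DESeq2, 4 with the replicate block and 0 to 1 when 1 library was left out. The cause of these differences was not tested. For the fits without 1 library, the shares of all CDS and 3′UTR rows called are not given. Those counts are therefore not a result about the members. The CR-1-31-B against silvestrol count for member leaders was 0 under every alternative, the replicate block included. The median log2 change without 1 library ran from 0.01 to 0.22 for member CDS and from -0.30 to -0.16 for member 3′UTRs. The median input level of member leaders was 8.57 CPM relative to the leader, CDS and 3′UTR counts alone, against 7.80 CPM for the other leaders. The lowest rocaglate and highest DMSO library were under 1.1 times apart for 161 members. Depth limits the input comparison, where a count of 0 allows up to 1.37 CPM.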
